A study of Mus musculus with 9 samples.

Results

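A total of 34 genes expressed in male germ cells or known for their products in spermatozoa were followed in RNA-seq libraries of the mouse IS-caput epididymis, the initial segment of the epididymal duct dissected together with the caput. They were taken by gene symbol from a fixed list of germ cell and sperm genes, and 34 of 34 were found among the 24346 genes of the deposited table. Their expression is given as normalized FPKM, a read count scaled for transcript length and library size. The groups were 3 libraries from Nicol+/- males, which are heterozygous for an allele without the Nicol coding sequence and served as controls, 3 from Nicol-/- males and 3 from Ros1-/- males, all 14 weeks old. The Nicol allele was made by genome editing on a B6D2F1 background. Neither knockout is restricted to a cell type. Ros1+/- and wild-type libraries were not analysed here, and both knockouts were set against the same 3 Nicol+/- libraries, which carry 1 null Nicol allele. The labels do not say which animals or how many stand behind a library, and p-values here reflect only how much these libraries vary, which may be technical.

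Spermatids replace the histones of their nucleus first with transition proteins and then with protamines. Because transcription stops while the nucleus condenses, their mRNAs are made earlier and stored, and spermatozoa leave the testis with only remnants of them. ROS1 is a receptor of the initial segment epithelium, to which the testis signals through the luminal fluid, and NICOL is a small secreted protein that the study examined in this pathway. The same duct carries spermatozoa. A whole-tissue library of the epididymis holds RNA of the lumen and of the duct wall together, and in such bulk tissue a larger number of cells and more RNA per cell cannot be told apart.

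The libraries held between 8189628 and 16595576 estimated reads. Gm1673, the gene encoding NICOL, was listed at 0 in each Nicol-/- library and stood at 6.05 to 9.09 FPKM in Nicol+/- and 16.6 to 19.6 FPKM in Ros1-/-. Ros1 stood at 40.8 to 48 FPKM in Nicol+/-, 16.8 to 24.7 FPKM in Nicol-/- and 8.06 to 9.32 FPKM in Ros1-/-. The initial segment markers summed to 18740 to 28950 FPKM in Nicol+/-, 62.8 to 90 FPKM in Nicol-/- and 49.3 to 50.9 FPKM in Ros1-/-. Of 6 caput epithelium markers, Gpx5 stood at 23430 to 36736 FPKM over all 9 libraries, while 3 were called lower in Nicol-/- and 2 in Ros1-/-, among them Crisp1 and Cst11. Replicate 3 of each knockout stood apart in the members. Nicol-/- replicate 3 was above both other libraries of its group in 30 of 34 members and Ros1-/- replicate 3 in 24 of 34. Among the 26 members that reached 1 FPKM in at least 3 of 9 libraries, these counts were 25 and 20. The same count over all genes was not made. Results are also given without these libraries.

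The germ cell transcripts were more abundant in both knockouts than in the controls. Summed over the 34 members, the level was 331, 226 and 290 FPKM in the Nicol+/- libraries, 418, 547 and 1057 FPKM in Nicol-/- and 483, 512 and 1040 FPKM in Ros1-/-. Every knockout library was above every control library, and replicate 3 of each knockout was far above the other libraries of its group. Without Prm2, the member with the highest mean, the sums were 189 to 279, 345 to 745 and 355 to 610 FPKM in the same order of groups. Of the members, 26 reached 1 FPKM in at least 3 of 9 libraries and were tested with limma on log2(FPKM + 1) in a fit of all 9 libraries over 13647 genes, and a gene was called at a Benjamini-Hochberg adjusted p under 0.05. In Nicol-/-, 9 of the 26 were called higher and 0 lower (17 not called), where 8.95% of all tested genes were called higher and 11.9% lower. At an unadjusted p under 0.05, limma gave 17 higher and 0 lower. In Ros1-/-, 8 were called higher and 1 lower, against 9.52% and 13.3% of all tested genes (14 and 2 at an unadjusted p under 0.05). The median log2 fold change of the 26 was 0.94 in Nicol-/- and 0.80 in Ros1-/-, beside 0.00 and 0.01 over all tested genes, and 24 of 26 were positive in each. These shares come from members that passed the filter on low values, and they do not stand for all 34. Tssk2, Tssk3 and Izumo1 stayed under 1 FPKM in every Nicol+/- library and passed only through knockout libraries, which favours a positive value. With no filter, the 8 members left out had log2 fold changes of -0.13 to 0.63 in Nicol-/- and -0.09 to 0.21 in Ros1-/-.

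**Figure D1:**
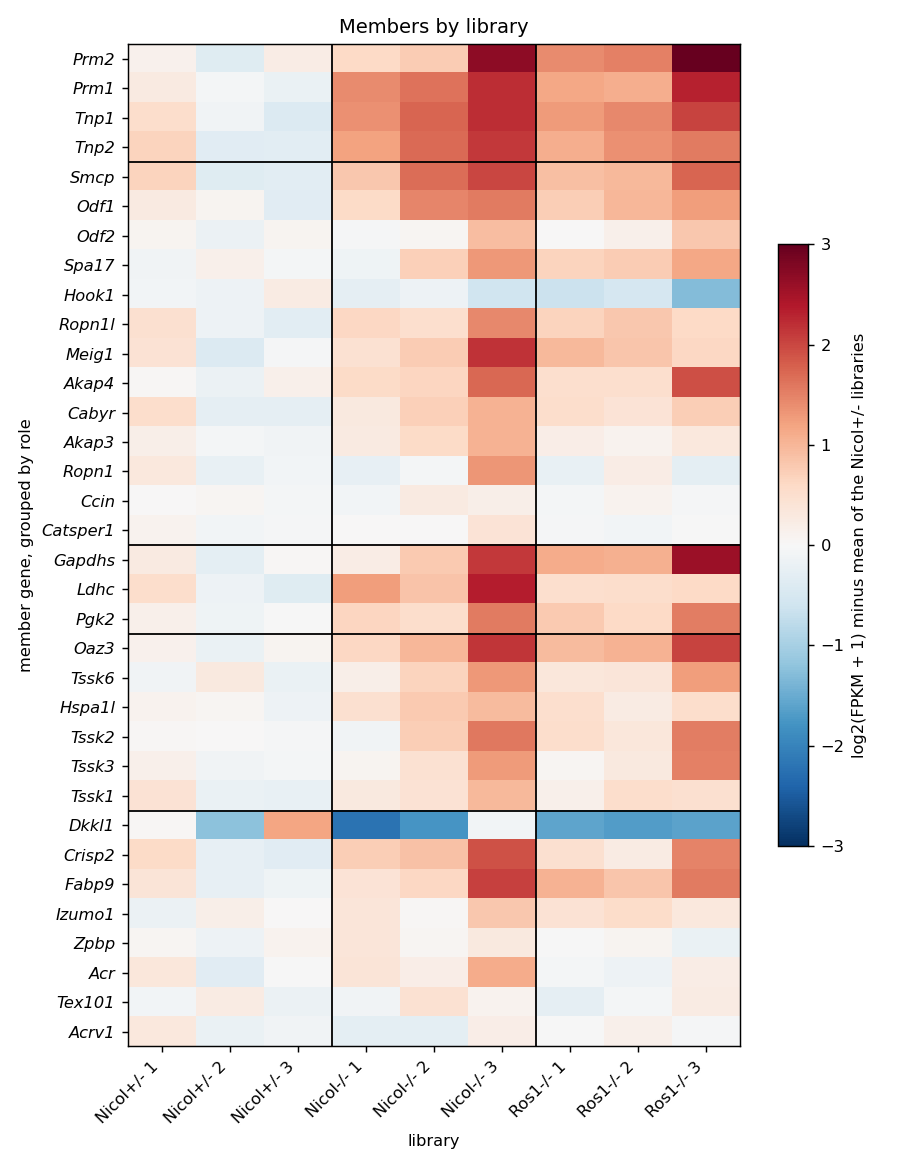
Each row is a member gene, grouped by role, and each column a library. The colour is log2(FPKM + 1) minus the mean of the 3 Nicol+/- libraries. Red is above and blue below that mean. The columns of Nicol-/- replicate 3 and Ros1-/- replicate 3 hold the darkest red, and the rows of Hook1 and Dkkl1 go the other way from most others.

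The nuclear condensation genes had the highest median log2 fold change of the 5 role groups, 1.72 in Nicol-/- and 1.55 in Ros1-/-, with 3 and 4 of 4 called higher. The scale of log2(FPKM + 1) understates changes of low genes, so this order depends partly on abundance. As plain ratios of mean FPKM to Nicol+/-, the condensation genes stood at 3.21 to 3.55 in Nicol-/- and 2.52 to 4.78 in Ros1-/-. The glycolytic and lactate enzymes stood at 2.43 to 3.35 and 1.48 to 3.88, and the group of kinases, chaperone and antizyme at 1.93 to 3.18 and 1.49 to 3.19. Prm1 and Prm2 encode the protamines that package sperm DNA, and Tnp1 and Tnp2 the transition proteins that precede them. Prm1 stood at 29.5, 23.3 and 21 FPKM in Nicol+/-, 66.8, 77.7 and 117 FPKM in Nicol-/- and 55.7, 53.2 and 125 FPKM in Ros1-/-. Neither knockout overlapped the controls. Prm1 rose by 1.76 ± 0.32 (SE, n = 3 per group) on the log2 scale in Nicol-/- (limma adjusted p = 0.00622) and by 1.52 ± 0.32 in Ros1-/- (limma adjusted p = 0.0103). Tnp1 stood at 19.8, 12.4 and 9.81 FPKM in Nicol+/-, 36.1, 47.5 and 65.8 FPKM in Nicol-/- and 33.9, 38.3 and 58.3 FPKM in Ros1-/-. Its log2 fold change was 1.77 ± 0.29 in Nicol-/- (limma adjusted p = 0.00374) and 1.58 ± 0.29 in Ros1-/- (limma adjusted p = 0.00548). Neither knockout overlapped the controls. Tnp2 stood at 20.8, 9.81 and 10 FPKM, then 30.6, 43.6 and 59.2 FPKM, then 28.3, 34.7 and 39.5 FPKM, and was called higher in both, by 1.68 ± 0.30 (limma adjusted p = 0.00558) and 1.34 ± 0.30 (limma adjusted p = 0.0131). In Ros1-/- the call for Tnp2 was lost without Nicol+/- replicate 3 (adjusted p = 0.0543).

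Prm2 was the most abundant member and the most variable of the 4. It stood at 52.2, 37.3 and 56.4 FPKM in Nicol+/-, 73.3, 82.1 and 312 FPKM in Nicol-/- and 129, 138 and 430 FPKM in Ros1-/-. All 3 libraries of each knockout were above all controls, but replicate 3 was far above its group. Prm2 was called higher in Ros1-/-, by 2.02 ± 0.59 (SE, n = 3 per group, limma adjusted p = 0.0375), and was not called in Nicol-/-, where the log2 fold change was 1.35 ± 0.59 (limma adjusted p = 0.135). With the replicate number as a block the Nicol-/- value passed (limma adjusted p = 0.0252), and without replicate 3 of both knockouts it was 0.69 and also passed (adjusted p = 0.0319). The Ros1-/- call was lost on leaving out any Nicol+/- or Ros1-/- library in turn, with adjusted p of 0.0554 to 0.105. Within a library the ratio of Prm2 to Prm1 was 1.6 to 2.69 in Nicol+/-, 1.06, 1.1 and 2.66 in Nicol-/- and 2.31 to 3.44 in Ros1-/-. Nicol-/- replicates 1 and 2 thus lay below all the controls in this ratio while the Ros1-/- libraries lay within or above their range. The ratio of Tnp1 to Prm1 moved less, with 0.468 to 0.672 in Nicol+/-, 0.54 to 0.612 in Nicol-/- and 0.466 to 0.721 in Ros1-/-.

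**Figure D2:**
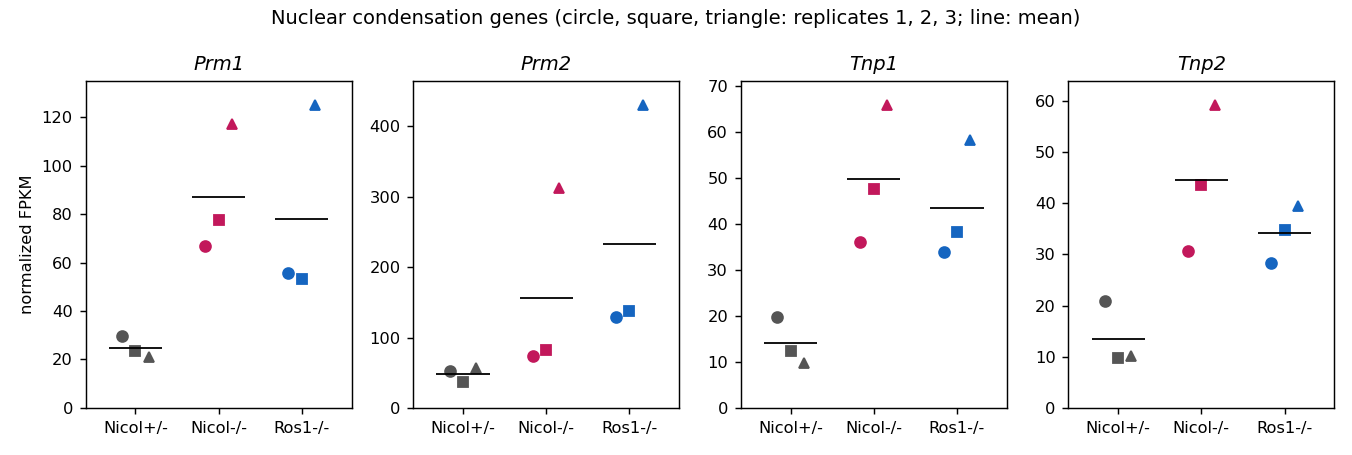
Normalized FPKM of Prm1, Prm2, Tnp1 and Tnp2 in each library, with a linear axis from 0 for each gene. Symbols mark replicates 1 to 3 and the line is the mean of 3. For Prm1, all control libraries lie at or below 29.5 FPKM and all knockout libraries at or above 53.2 FPKM.

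Prm1, Prm2 and Tnp2 lie in a cluster of 8889 bases on chromosome 16 that also holds Prm3, and Tnp1 lies on chromosome 1. In RefSeq coordinates of GRCm38.p6 (mm10) Prm1 is at chr16:10796332-10796823, Prm2 at chr16:10791377-10792105, Tnp2 at chr16:10787935-10788655 and Tnp1 at chr1:73015074-73015899. No other RefSeq gene overlaps these 4. Prm3, the cluster's neighbour, stood at 0.95 to 3.03 FPKM in Nicol+/-, 2.75 to 5.51 FPKM in Nicol-/- and 1.01 to 9.49 FPKM in Ros1-/-, and was not called in either knockout (limma adjusted p = 0.254 and 0.337). The 100 bases before the transcription start of the 4 condensation genes are printed because this role group had the highest median log2 fold change. Each is given 5′ to 3′ on the minus strand, from RefSeq promoters of GRCm38.p6. Capitals mark the letters TATAA or their reverse complement TTATA, which were searched for after the levels were known.
Prm1, chr16:10796824-10796923: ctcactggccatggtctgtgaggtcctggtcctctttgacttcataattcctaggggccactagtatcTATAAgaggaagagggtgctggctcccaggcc
Prm2, chr16:10792106-10792205: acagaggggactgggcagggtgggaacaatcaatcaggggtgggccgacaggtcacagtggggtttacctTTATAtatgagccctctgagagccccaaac
Tnp1, chr1:73015900-73015999: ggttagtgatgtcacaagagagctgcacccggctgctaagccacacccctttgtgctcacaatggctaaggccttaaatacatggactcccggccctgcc
Tnp2, chr16:10788656-10788755: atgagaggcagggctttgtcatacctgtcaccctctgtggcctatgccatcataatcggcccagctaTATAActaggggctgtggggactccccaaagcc
The letters stand 30 to 33 bases before the start in Prm1, Prm2 and Tnp2, and are not in the Tnp1 window. They occur in the same window of at least 1 promoter for 5 of the 28 members in the RefSeq promoter table and for 11.8% of its 27025 genes. The motif TGACGTCA, bound by CREM, a factor that drives many spermatid genes, was searched on both strands in 250 bases before to 50 after the start. It occurs for 2 of 28 members, Ccin and Izumo1, and for 2.03% of all genes, while TGACGTAA or TTACGTCA occurs for 0 of 28 and for 0.581%. These matches describe letters in a window and not sites used in these cells.

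Among the flagellum and cytoskeleton genes, 9 of 13 were tested. Odf1 and Smcp rose in both knockouts, Ropn1l passed in Nicol-/-, and Hook1 fell in Ros1-/-. The median log2 fold changes were 0.85 and 0.80. Odf1 encodes a protein of the outer dense fibres around the sperm axoneme. It stood at 20.8, 18.2 and 13.2 FPKM in Nicol+/-, 26.2, 49.2 and 52.1 FPKM in Nicol-/- and 29.4, 34.9 and 42.6 FPKM in Ros1-/-. No knockout library overlapped the controls, and the log2 fold changes were 1.20 ± 0.26 (SE, n = 3 per group, limma adjusted p = 0.0133) and 0.999 ± 0.26 (limma adjusted p = 0.0253). The Nicol-/- call was lost without Nicol+/- replicate 3 (adjusted p = 0.0538), and the Ros1-/- call when any of 4 libraries was left out, replicates 2 and 3 of Nicol+/- and of Ros1-/- (adjusted p = 0.0506 to 0.0931). Smcp encodes a cysteine-rich protein of the sperm mitochondrial capsule. It stood at 36.6, 17.3 and 17.9 FPKM in Nicol+/-, 39.9, 73.6 and 92.6 FPKM in Nicol-/- and 42.6, 44.8 and 78.4 FPKM in Ros1-/-. Nicol+/- replicate 1 came within a few FPKM of the lowest knockout libraries, and the other controls stayed far below. The log2 fold changes were 1.49 ± 0.38 (limma adjusted p = 0.0243) and 1.20 ± 0.38 (limma adjusted p = 0.0476). The first was lost when replicate 2 or 3 of Nicol+/- or of Nicol-/- was left out (adjusted p = 0.0617 to 0.0886) and with the block in the 6 libraries compared (adjusted p = 0.0595). The second was lost when leaving out replicate 2 or 3 of Nicol+/-, Nicol-/- replicate 2 or any Ros1-/- library (adjusted p = 0.0598 to 0.151).

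Ropn1l, which encodes a ropporin-like protein of the fibrous sheath that is also found in motile cilia, stood at 10.9, 6.75 and 5.87 FPKM in Nicol+/-, 12.2, 11.1 and 22.2 FPKM in Nicol-/- and 12.6, 14.1 and 11.9 FPKM in Ros1-/-. It was called in Nicol-/- at 0.85 ± 0.26 (SE, n = 3 per group, limma adjusted p = 0.0477) and not in Ros1-/- at 0.69 ± 0.26 (limma adjusted p = 0.0869). The Nicol-/- call was lost with the block over 9 libraries (adjusted p = 0.065), and on leaving out replicate 2 or 3 of Nicol+/-, Nicol-/- replicate 1 or 3 or any Ros1-/- library (adjusted p = 0.0626 to 0.161). Akap4, the main structural protein of the fibrous sheath, was at 1.48 to 2.09 FPKM in Nicol+/-, 3.13, 3.39 and 8.18 FPKM in Nicol-/- and 2.96, 2.95 and 9.75 FPKM in Ros1-/-. All knockout libraries were above the controls, yet the log2 fold changes of 0.98 ± 0.41 and 0.98 ± 0.41 were not called (limma adjusted p = 0.124 and 0.119), while the fit with the block over 9 libraries called the Nicol-/- value (adjusted p = 0.0277). Meig1, a protein of the manchette, the microtubule skirt of the spermatid, was highest in Nicol-/- replicate 3. It stood at 2.6 to 5.45 FPKM in Nicol+/-, 5.61, 7.11 and 20.4 FPKM in Nicol-/- and 6.32 to 8.41 FPKM in Ros1-/-, with no call (limma adjusted p = 0.0705 and 0.173). Spa17 and Cabyr, of the fibrous sheath, and Odf2, of the outer dense fibres and of centrioles in other cells, were not called in either knockout. The log2 fold changes of Spa17 were 0.64 in Nicol-/- and 0.86 in Ros1-/-, those of Cabyr 0.68 and 0.55, and those of Odf2 0.32 and 0.32. Odf2 was the third most abundant of the flagellum genes over the 9 libraries, at 19.5 to 23.5 FPKM in Nicol+/-, 21.5, 23.1 and 42.8 FPKM in Nicol-/- and 22.1, 24.6 and 39.3 FPKM in Ros1-/-, and the controls overlapped both knockouts.

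Hook1 was the only member called lower. It encodes a microtubule-linker protein that is needed in the manchette and is also used by epithelial cells. It stood at 15.3, 14.7 and 19.4 FPKM in Nicol+/-, 13.3, 14.7 and 10.5 FPKM in Nicol-/- and 10.2, 11.2 and 6.06 FPKM in Ros1-/-. The Ros1-/- libraries all lay below the controls, whereas Nicol-/- replicate 2 nearly met the lowest control. The log2 fold change was -0.81 ± 0.21 in Ros1-/- (SE, n = 3 per group, limma adjusted p = 0.0233) and -0.34 ± 0.21 in Nicol-/- (limma adjusted p = 0.28). The Ros1-/- call was lost without Nicol+/- replicate 3 (adjusted p = 0.0871). The difference between the knockouts was -0.48 ± 0.21 and was not called (limma adjusted p = 0.286). Ros1-/- replicate 3, the highest library in Prm1 and Prm2, held the least Hook1.

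**Figure D3:**
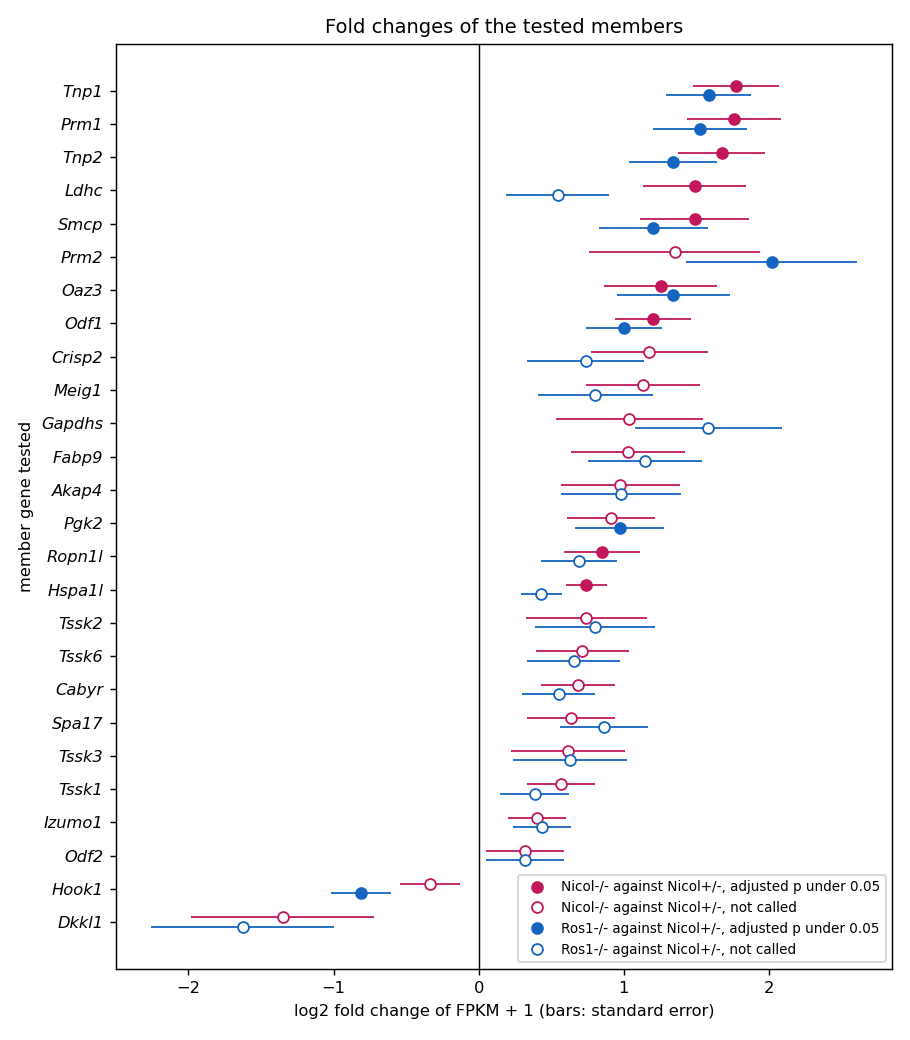
Log2 fold change of FPKM + 1 with its standard error for the 26 tested members, against the same 3 Nicol+/- libraries in both comparisons. Filled points passed an adjusted p of 0.05. Points for 24 of 26 members lie right of 0 in each comparison, and Hook1 and Dkkl1 lie left of it.

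Of the 3 enzymes that spermatozoa use in place of the somatic forms, 1 was called higher in each knockout, Ldhc in Nicol-/- and Pgk2 in Ros1-/-. Ldhc encodes the germ cell lactate dehydrogenase subunit, Pgk2 a phosphoglycerate kinase that arose as a retrocopy of Pgk1, and Gapdhs the sperm form of glyceraldehyde-3-phosphate dehydrogenase. Ldhc stood at 8.19, 4.67 and 3.91 FPKM in Nicol+/-, 14.1, 10.5 and 31.6 FPKM in Nicol-/- and 8.02, 8.17 and 8.59 FPKM in Ros1-/-. Nicol-/- was above the controls in every library, whereas Ros1-/- overlapped them. The log2 fold change was 1.49 ± 0.35 in Nicol-/- (SE, n = 3 per group, limma adjusted p = 0.0191) and 0.54 ± 0.35 in Ros1-/- (limma adjusted p = 0.299). Without Nicol+/- replicate 2 or 3 the first was not called (adjusted p = 0.0565 and 0.0738). Set directly against Nicol-/-, Ros1-/- was at -0.94 ± 0.35, which was not called (limma adjusted p = 0.219), so a difference between the knockouts was not shown. Gapdhs stood at 5.48, 3.35 and 4.47 FPKM in Nicol+/-, 5.27, 8.17 and 22.2 FPKM in Nicol-/- and 10.5, 10.3 and 30.7 FPKM in Ros1-/-, and was called in neither (limma adjusted p = 0.176 for 1.04 ± 0.51 and 0.0519 for 1.58 ± 0.51). The Ros1-/- value of Gapdhs passed in 9 alternatives, among them the fit without Nicol-/- replicate 3 (adjusted p = 0.0187) and that without replicate 3 of both knockouts (adjusted p = 0.0117). The ratio of Ldhc to Prm1 was 0.186 to 0.278 in Nicol+/-, 0.135 to 0.269 in Nicol-/- and 0.0687, 0.144 and 0.154 in Ros1-/-, and the replicates 3 of the knockouts, with 117 and 125 FPKM of Prm1, held 31.6 and 8.59 FPKM of Ldhc. Pgk2 stood at 1.9 to 2.54 FPKM in Nicol+/-, 4, 3.57 and 8.47 FPKM in Nicol-/- and 4.5, 3.8 and 8.29 FPKM in Ros1-/-. It was called in Ros1-/- at 0.97 ± 0.31 (limma adjusted p = 0.0484) and not in Nicol-/- at 0.91 ± 0.31 (limma adjusted p = 0.0631), while the block over 9 libraries called the Nicol-/- value (adjusted p = 0.0216). Leaving out any Nicol+/- library, Nicol-/- replicate 1 or Ros1-/- replicate 1 or 3 ended the Ros1-/- call (adjusted p = 0.0585 to 0.14).

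Of the kinases, the chaperone and the antizyme, 2 of 6 passed in Nicol-/-, Oaz3 and Hspa1l, and Oaz3 passed in Ros1-/-. Oaz3 encodes antizyme 3, which controls polyamine levels late in spermatid development. It stood at 12.4, 9.71 and 11.9 FPKM in Nicol+/-, 17.9, 23.3 and 53.7 FPKM in Nicol-/- and 22.6, 24.5 and 49 FPKM in Ros1-/-. Every knockout library was above every control, and the third libraries were the highest again. The log2 fold changes were 1.26 ± 0.39 (SE, n = 3 per group, limma adjusted p = 0.0494) and 1.34 ± 0.39 (limma adjusted p = 0.0371). The first was lost on leaving out any of 7 libraries, which were all but Nicol-/- replicate 1 and Ros1-/- replicate 3 (adjusted p = 0.0632 to 0.122), and the second on leaving out any Nicol+/- or Ros1-/- library (adjusted p = 0.0567 to 0.109). Hspa1l, a testis member of the HSP70 chaperones, stood at 2.81, 2.71 and 2.18 FPKM in Nicol+/-, 4, 5.16 and 5.81 FPKM in Nicol-/- and 4.05, 3.24 and 4.15 FPKM in Ros1-/-. It had the smallest standard error of the members that passed, with 0.74 ± 0.14 in Nicol-/- (limma adjusted p = 0.00745) and 0.43 ± 0.14 in Ros1-/- (limma adjusted p = 0.0562). The testis-specific serine kinases Tssk1, Tssk2, Tssk3 and Tssk6, which act in spermatid shaping, were low, at 0.419 to 4.14 FPKM in the controls. Their log2 fold changes lay between 0.39 and 0.80 and none was called, with the highest values of Tssk2, Tssk3 and Tssk6 in replicate 3 of each knockout (3.35 to 9.28 FPKM).

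**Figure D4:**
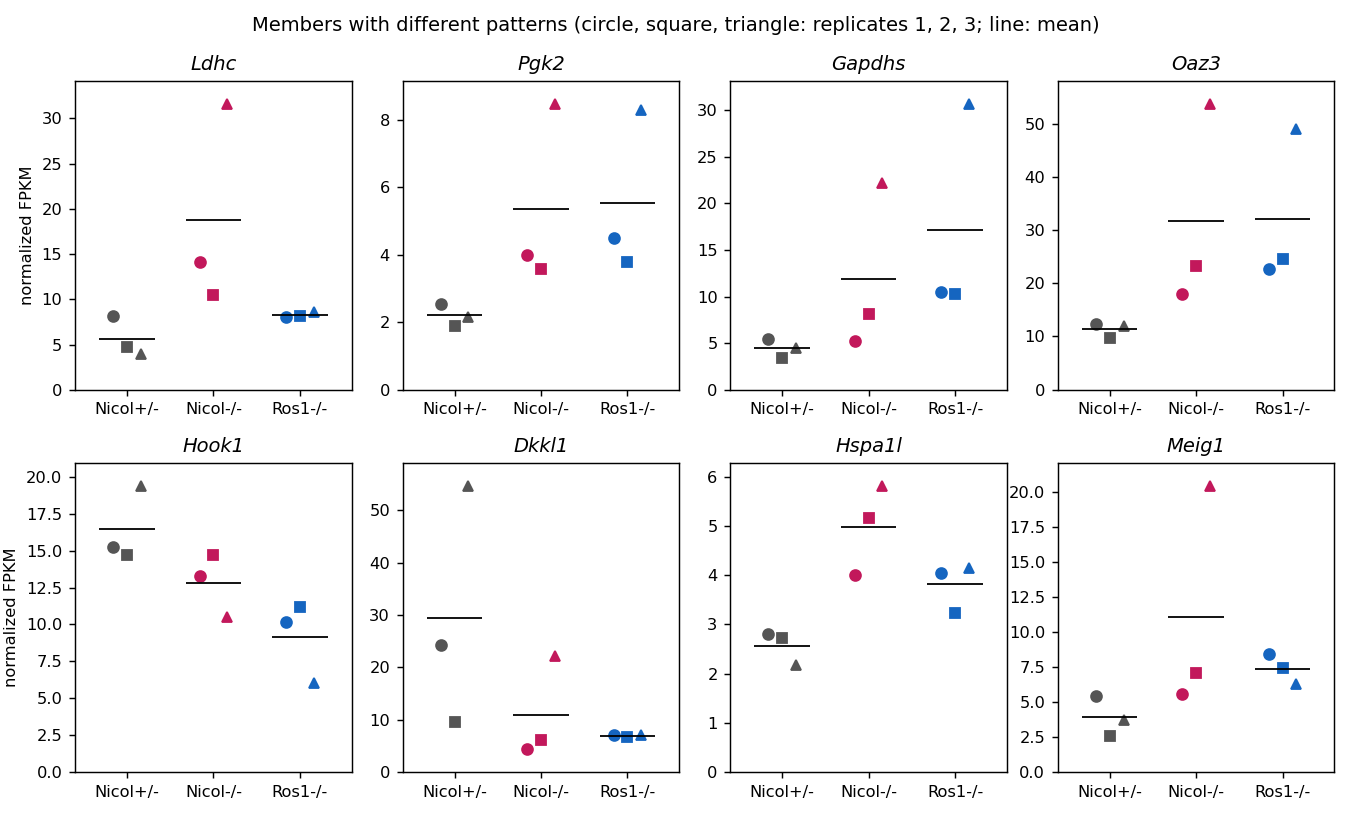
Normalized FPKM by library for 8 members, with a linear axis from 0 for each gene. Symbols mark replicates 1 to 3 and the line is the mean of 3. Ldhc and Meig1 are highest in Nicol-/- replicate 3, Gapdhs in Ros1-/- replicate 3, and Hook1 and Dkkl1 are highest in a control library.

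None of the 4 tested acrosome, surface and fertilization genes was called. Crisp2, a cysteine-rich protein of the acrosome and tail, stood at 4.34 to 9.03 FPKM in Nicol+/-, 10.3, 11.3 and 24.1 FPKM in Nicol-/- and 6.94 to 17.8 FPKM in Ros1-/- (log2 fold change 1.18 ± 0.40 and 0.74 ± 0.40, limma adjusted p = 0.0673 and 0.219). Fabp9, a lipid-binding protein under the acrosome, stood at 3.67 to 6.21, 6.39 to 21.8 and 8.94 to 15.2 FPKM in the same order, and was above the controls in every knockout library without a call (limma adjusted p = 0.0922 and 0.0632). Izumo1, the sperm protein that binds the egg at fusion, was at 0.364 to 1.71 FPKM over the 9 libraries and was not called (limma adjusted p = 0.182 and 0.146). Dkkl1, a secreted acrosomal protein, went the other way from the rest of its group. It stood at 24.2, 9.47 and 54.6 FPKM in Nicol+/-, 4.31, 6.18 and 22.2 FPKM in Nicol-/- and 7.13, 6.65 and 7.03 FPKM in Ros1-/-. The controls spread over more than 40 FPKM and the Ros1-/- libraries lay close together below them, whereas Nicol-/- replicate 3 was level with the controls. The log2 fold changes of -1.35 ± 0.63 and -1.63 ± 0.63 were not called (limma adjusted p = 0.159 and 0.0943). The Nicol-/- value passed under the block in the 6 libraries compared (adjusted p = 0.0349) and without Nicol-/- replicate 3 (adjusted p = 0.0423). The Ros1-/- value passed without Nicol+/- replicate 2 (adjusted p = 0.0307) or Nicol-/- replicate 3 (adjusted p = 0.0425).

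The other 8 members, Akap3, Ropn1, Ccin, Catsper1, Acrv1, Acr, Zpbp and Tex101, stayed at or below 2.48 FPKM in every library and did not enter the test. Acr, the acrosomal protease acrosin, was at 0.105 to 0.775 FPKM in Nicol+/-, 0.596 to 2.03 FPKM in Nicol-/- and 0.255 to 0.628 FPKM in Ros1-/-, which is 2 to 42 estimated reads per library. Acrv1, an acrosomal protein, Tex101, a germ cell surface protein, Ccin, a protein of the sperm head cytoskeleton, and Catsper1, a subunit of the sperm calcium channel, had between 0 and 12 estimated reads in each library. Zpbp, an acrosomal zona-binding protein, was at 0.504 to 1.26 FPKM in the 9 libraries. Ropn1, the ropporin of the fibrous sheath, reached 2.48 FPKM in Nicol-/- replicate 3 and stayed at 0.145 to 0.74 FPKM elsewhere. Akap3, an anchoring protein of the fibrous sheath, was at 0.353 to 0.634 FPKM in Nicol+/- and 0.757, 1.15 and 2 FPKM in Nicol-/-, and was called higher there when the filter was set at 0.1 FPKM (0.63 ± 0.18, limma adjusted p = 0.0446).

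Between the knockouts, 0 of 26 members were called in either direction by limma (at an unadjusted p under 0.05, 0 were higher and 2, Hook1 and Ldhc, lower), where 0.403% of all tested genes were called higher and 1.15% lower in Ros1-/- than in Nicol-/-. The median log2 difference was -0.15 and 11 of 26 were positive.

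Other germ cell genes were read from lists by stage. Of 23 genes of elongating and condensing spermatids, 15 were tested, 2 were called higher in Nicol-/- and 1 in Ros1-/-, with 0 lower, beside 8.95% and 9.52% of all tested genes called higher. Leaving out 1 library moved the Nicol-/- count between 1 (replicate 3 of Nicol+/- or of Nicol-/-) and 4 (Nicol-/- replicate 1), and the Ros1-/- count between 0 (any Nicol+/- library or Ros1-/- replicate 2 or 3) and 3 (Nicol-/- replicate 3). The median log2 fold change was 0.76 and 0.58, and 14 and 13 were positive. Among the tested genes of this list, Actl7a, Actl7b, Fscn3 and Odf4 stayed under 1 FPKM in every Nicol+/- library. They passed the filter only through knockout libraries, which favours positive values and a higher median. Actl7a, an actin-like protein under the acrosome, rose in both, from 0.271 to 0.331 FPKM in Nicol+/- to 0.986 to 1.65 FPKM in Nicol-/- and 0.601 to 1.42 FPKM in Ros1-/- (0.76 ± 0.18, limma adjusted p = 0.0206, and 0.64 ± 0.18, limma adjusted p = 0.0345). The Nicol-/- call was lost without Nicol+/- replicate 3 or Nicol-/- replicate 3 (adjusted p = 0.0606 and 0.0522), and the Ros1-/- call without any Nicol+/- library or Ros1-/- replicate 2 or 3 (adjusted p = 0.0666 to 0.109). Hils1, a spermatid linker histone, rose in Nicol-/- (1.19 ± 0.26, limma adjusted p = 0.0142) and stood at 0.36 ± 0.26 in Ros1-/- (limma adjusted p = 0.358). The level of the whole list summed to 36.3 to 54.3 FPKM in Nicol+/-, 55.2 to 117 FPKM in Nicol-/- and 49.5 to 106 FPKM in Ros1-/-. Of 14 round spermatid genes, 6 were tested. Spag4, a nuclear envelope protein of spermatids, was called higher in Nicol-/- (0.57 ± 0.14, limma adjusted p = 0.022), a call lost without Nicol+/- replicate 1 or 2 or Nicol-/- replicate 1 or 3 (adjusted p = 0.0546 to 0.0648). Catsper3, another subunit of the sperm calcium channel, was called higher in Ros1-/- (0.97 ± 0.22, limma adjusted p = 0.0142), a call lost without Ros1-/- replicate 1 (adjusted p = 0.0519). Of 14 spermatocyte genes 5 were tested, and they went both ways. Mael, a protein of the piRNA pathway, rose in Nicol-/- (1.22 ± 0.28, limma adjusted p = 0.0179), though not without Nicol+/- replicate 2 or 3 (adjusted p = 0.0556 and 0.0655). Spo11, which makes the DNA breaks of meiosis, fell in both, from 4.47 to 5.18 FPKM in Nicol+/- to 0.585 to 0.918 FPKM in Nicol-/- and 0.332 to 0.453 FPKM in Ros1-/- (limma adjusted p = 1.82e-05 and 6.03e-06). Tdrd5, another gene of the piRNA pathway, also fell in both (-0.98 ± 0.21, limma adjusted p = 0.0127, and -0.76 ± 0.21, limma adjusted p = 0.0323), and leaving out replicate 1 or 2 of Nicol+/- or any Ros1-/- library ended the Ros1-/- call (adjusted p = 0.0501 to 0.103). Sycp3 of the synaptonemal complex was called higher in Ros1-/- at 0.936 to 1.07 FPKM against 0.269 to 0.714 FPKM (0.47 ± 0.15, limma adjusted p = 0.0465). This call was lost on leaving out any of 7 libraries, all but Nicol+/- replicate 3 and Nicol-/- replicate 3 (adjusted p = 0.0564 to 0.141). Actl7a, Catsper3 and Sycp3 stayed under 1 FPKM in every Nicol+/- library. They entered the test only through knockout libraries, which favours a higher call. Spo11 stood above 1 FPKM only in the controls, and Tdrd5 only in the controls and in Ros1-/- replicate 3 (1.03 FPKM), which favours a lower call for both. Of 10 spermatogonial genes 2 were tested, Dmrt1 and Stra8 were listed at 0 in all 9 libraries, and Gfra1, a GDNF receptor at 124 to 175 FPKM in every library, was called higher in Ros1-/- by 0.36 ± 0.09 (limma adjusted p = 0.0177). This call was lost without replicate 1 or 3 of Nicol+/- or of Ros1-/- (adjusted p = 0.0523 to 0.07). Nanos3, the other gene tested, stood at 9.18 to 14.4 FPKM in Nicol+/-, 19.5 to 23.2 FPKM in Nicol-/- and 2.48 to 14.7 FPKM in Ros1-/-. Its log2 fold change was 0.80 in Nicol-/-, -0.68 in Ros1-/- and -1.485 for Ros1-/- against Nicol-/-, and none was called. Of the 6 genes for ADAM3 and the germ cell proteins it depends on, 4 were tested, and Adam3 itself was called higher in Nicol-/- (1.03 ± 0.30, limma adjusted p = 0.0419) and not in Ros1-/- (0.15 ± 0.30, limma adjusted p = 0.751). The Adam3 call was lost without replicate 2 or 3 of Nicol+/-, replicate 1 or 3 of Nicol-/- or any Ros1-/- library (adjusted p = 0.05 to 0.143), and with the block in the 6 libraries compared (adjusted p = 0.0983).

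**Figure D5:**
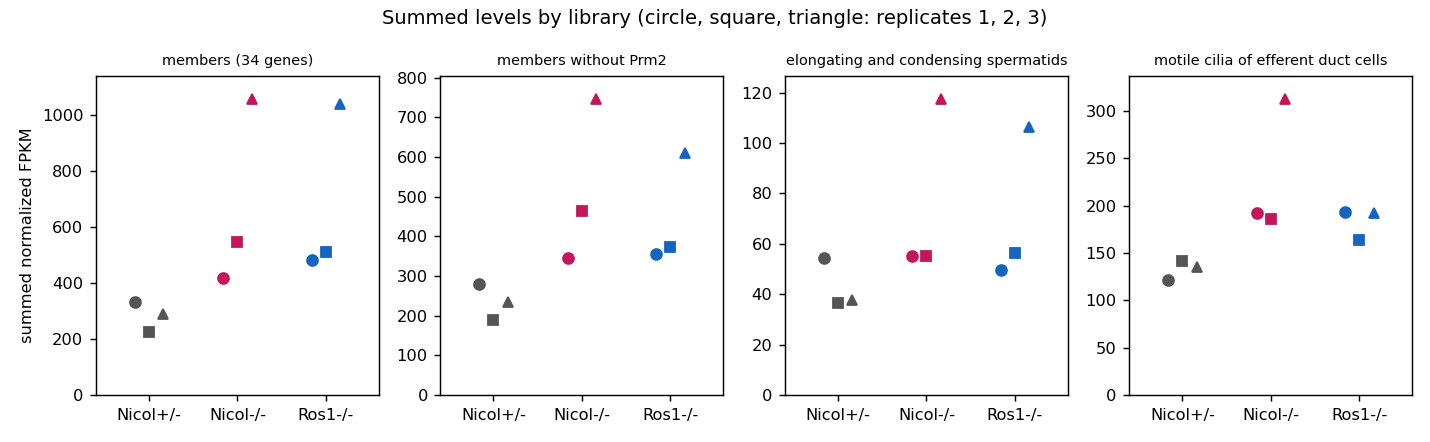
Summed normalized FPKM by library for the 34 members, the members without Prm2, a list of elongating and condensing spermatid genes and a list of motile cilia genes, each with a linear axis from 0. Symbols mark replicates 1 to 3. Replicate 3 of Nicol-/- is highest in all 4 panels, and replicate 3 of Ros1-/- is at 1040 FPKM for the members but within its group for the cilia genes.

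Markers of several other cell types also moved. Genes of motile cilia were listed for the ciliated cells of the efferent ducts that join the initial segment. Sperm tails also hold an axoneme, and which cells this RNA came from was not tested. Of these genes (26 listed), 10 of 21 tested were called higher in Nicol-/- and 1 of 21 in Ros1-/-. Of all tested genes, 8.95% and 9.52% were called higher. Their sum was 121 to 141 FPKM in Nicol+/-, 192, 185 and 312 FPKM in Nicol-/- and 193, 164 and 192 FPKM in Ros1-/-. Spag16, an axonemal protein, rose by 1.24 and Pifo, a ciliary protein, by 1.20 on the log2 scale in Nicol-/- (limma adjusted p = 0.00192 and 0.00951). Spag16 was among the genes that stayed under 1 FPKM in every Nicol+/- library and entered the test only through knockout libraries. Such entry favours a higher call, and with it a larger count for the list. Foxj1, the transcription factor of ciliated cells, chosen after its values were seen, stood at 3.7 to 7.99 FPKM in Nicol+/-, 11, 14.3 and 31.7 FPKM in Nicol-/- and 7.27 to 9.86 FPKM in Ros1-/-. Nicol-/- replicate 3 was highest in the sum of the cilia genes and in 23 of the 34 members, among them Ldhc and Meig1. Ros1-/- replicate 3 was the highest library in 5 of 34, among them Prm1, Prm2 and Gapdhs. It lay within its group in the sum of the cilia genes. The cilia count in Nicol-/- was 3 without Nicol+/- replicate 1 or 3, 4 without Ros1-/- replicate 1 and 6 without Nicol+/- replicate 2, Nicol-/- replicate 3 or Ros1-/- replicate 2 or 3. It was 10 and 12 without Nicol-/- replicates 1 and 2. Over these fits, 3.8% to 7.84% of all tested genes were called higher in Nicol-/-. The cilia count in Ros1-/- became 7 when Nicol-/- replicate 3 was left out, 2 for replicate 1 of that group and 0 when Ros1-/- replicate 1 was left out. In these fits 12.8%, 8.69% and 4.06% of all tested genes were called higher in Ros1-/-. The 21 genes gave 0 calls between the knockouts. Among the markers of somatic cells of the testis, the Sertoli genes Fshr and Gata1 and the Leydig genes Hsd3b1, Hsd3b6 and Hsd17b3 were listed at 0 in all 9 libraries, and the whole lists summed to 2.52 to 7.7 FPKM for 8 Sertoli genes and 4.69 to 11.1 FPKM for 8 Leydig genes. Of the 3 Leydig genes tested, Cyp17a1, a steroidogenic enzyme, was called higher in both knockouts, by 0.46 ± 0.12 in Nicol-/- (limma adjusted p = 0.0297) and 1.22 ± 0.12 in Ros1-/- (limma adjusted p = 0.000169). The Nicol-/- call was lost without Nicol+/- replicate 2 or 3, Nicol-/- replicate 1 or 3 or Ros1-/- replicate 1 (adjusted p = 0.0521 to 0.101), and with the block in the 6 libraries compared (adjusted p = 0.0943). Rn45s, the ribosomal RNA precursor, was at 592 to 1185 FPKM in Nicol+/-, 1922 to 2579 FPKM in Nicol-/- and 4700 to 17290 FPKM in Ros1-/-, and its highest library was Ros1-/- replicate 3. Of 6 tested smooth muscle genes, 5 were called higher and 1, Actg2, lower in Nicol-/-, and 0 higher and 1 lower in Ros1-/-. Of 8 endothelial genes, 5 were called lower in Nicol-/- and 6 in Ros1-/-, where 11.9% and 13.3% of all tested genes were called lower. Of 8 macrophage genes, 1 was called lower in Nicol-/- and 0 were called in Ros1-/-. The log2 fold change was positive for 2 of the 8 in Nicol-/- (median -0.23) and for 5 in Ros1-/- (median 0.15). Their sum was highest in Nicol-/- replicate 3 (275 FPKM against 132 to 233 FPKM). Cd68, named after its values were seen, was at 92.2 FPKM there against 18.8 to 41.9 FPKM elsewhere, and was the only 1 of the 8 highest in that library. The part of these cell types and of ribosomal RNA in the members' levels was not tested.

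Without replicate 3 of both knockouts, a choice made after the data had been seen, 10 members were called higher in Nicol-/- and 11 in Ros1-/-, with 0 and 1 lower. In that fit 6.87% of all tested genes were called higher and 10.4% lower in Nicol-/-, and 8.63% higher and 12% lower in Ros1-/-. Prm1, Tnp1 and Tnp2 were called in both knockouts in this fit too, while Smcp and Ropn1l were not called in Nicol-/- (adjusted p = 0.0522 and 0.113) and Odf1 and Smcp were not called in Ros1-/- (adjusted p = 0.0607 and 0.103). Without Nicol-/- replicate 3 alone, which enters the Ros1-/- comparison through the shared estimate of spread, 14 members were called higher and 2 lower in Ros1-/- (12.8% and 15.8% of all tested genes). The calls gained there were Ropn1l, Spa17, Meig1, Gapdhs, Hspa1l and Fabp9 higher and Dkkl1 lower (adjusted p = 0.0065 to 0.0425). An exact permutation test of 3 libraries against 3 (two-sided) cannot give a p below 0.1, and every member called by limma reached that value. Of the 34 members, 10 overlap another RefSeq gene, among them Smcp, Oaz3, Hook1, Gapdhs and Ropn1l. The strand setting of the counting by the authors is not stated, so part of their reads could belong to the neighbour, and reads of Pgk2 and the Tssk genes could be shared with near-identical copies.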

How the data were processed

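RNA from IS-caput epididymis was made into stranded mRNA libraries and sequenced as single-ended reads. The authors mapped them to mm10 with TopHat2 2.1.1 and computed FPKM with Cufflinks 2.2.1. The deposited table holds normalized FPKM and a normalized count, a signal per gene that the authors had scaled between libraries. Neither the annotation nor the strand setting nor the treatment of multiply mapped reads was found in the labels or methods. The normalized count was used only to estimate reads: 98.2% to 98.6% of values were whole multiples of a step per library (within 0.02), which gave 8189628 to 16595576 reads. Low members have few reads, and low values are accordingly less precise.

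limma 3.58.1 in R 4.3.3 with a mean-variance trend was fitted to log2(FPKM + 1), pseudocount 1, over 13647 genes with at least 1 FPKM in at least 3 of 9 libraries, leaving 6 residual degrees of freedom. Fold changes on this scale understate those of low genes. Benjamini-Hochberg adjustment covered all tested genes, and the threshold was 0.05. The fit was tested on simulated data. Libraries of a group had correlations of 0.966 to 0.99 across genes and none was a copy of another. Same-numbered libraries of Nicol-/- and Nicol+/- deviated together (correlations of 0.194, 0.103 and 0.243), which by the rule used here counts as pairing, although the labels do not state where it comes from. The fit reported has no block, and the block entered as an alternative. It did not pair Ros1-/- with Nicol+/- (-0.0439, 0.0134 and 0.0967).

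The members and lists were chosen with earlier results of these data known. Every member is accounted for, and members that were called, the 6 with the highest mean and the 4 condensation genes are given by library. From other lists the text takes up to 4 genes with the smallest p and those called against most of their list. Prm3 was added as a neighbour of the protamine genes. Alternatives changed the pseudocount, the filter, the scaling or the variance model, or were fits to 6 libraries, the block and leaving out each library. RefSeq locations and promoters are of GRCm38.p6. Figures were drawn with matplotlib 3.10.9.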

Additional observations from a re-analysis of the deposited data

Results flagged for a closer look

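Spag4, a spermatid gene outside the 34 members, differed between the knockouts by a direct test. It stood at 3.21, 2.63 and 3.78 FPKM in Nicol-/- and 1.66, 1.42 and 1.42 FPKM in Ros1-/-, and the Nicol+/- libraries held 1.63, 1.61 and 2.27 FPKM. The log2 difference of Ros1-/- from Nicol-/- was -0.7438 (SE 0.14, limma adjusted p = 0.039), with every Ros1-/- library below every Nicol-/- library. Over the alternatives the adjusted p ranged from 0.029 to 0.134, and the call held in 9 of 21 of them. The call ended without replicate 1 or 2 of Nicol+/- (0.0521 and 0.0606), replicate 1 or 3 of Nicol-/- (0.112 and 0.0622) or any Ros1-/- library (0.106 to 0.134). Groups of 3 libraries are too small for a test of single outlying values.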

How the results depend on the processing

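The direction of all called members held under every alternative run. For values that were not called, a change of sign was not counted as a reversal, as for Adam3 in Ros1-/- (-0.0217 to 0.4004). Of 18 calls, 5 held in every alternative: Prm1, Tnp1, Tnp2 and Hspa1l in Nicol-/- and Tnp1 in Ros1-/-. The count of members higher in Nicol-/- was 9, and it was 4 with no filter, where all 24346 genes share the adjustment. Of all genes, 8.95% were called higher there in the fit reported and 2.76% with no filter. The count higher in Ros1-/- was 8, and it was 1 with no filter, 4 with robust empirical Bayes and 14 in a fit to the 6 libraries compared. The shares of all genes called higher in Ros1-/- were 9.52% in the fit reported and 3.26%, 9.59% and 11.7% in these fits. The count lower in Ros1-/- was 1, and it was 0 with no filter. On leaving out each library in turn, the count higher in Nicol-/- ranged from 4 (without Nicol+/- replicate 3) to 11 and the count lower there from 0 to 1, the count higher in Ros1-/- from 2 (without Nicol+/- replicate 3) to 14 (without Nicol-/- replicate 3) and the count lower there from 0 to 2, and the counts between the knockouts stayed at 0. Without Nicol+/- replicate 3, 3.8% of all tested genes were called higher in Nicol-/- and 4.81% in Ros1-/-. Without Nicol-/- replicate 3, 12.8% were called higher in Ros1-/-. The 11 in Nicol-/- came without Nicol+/- replicate 1 or Ros1-/- replicate 3, where 6.73% and 7.84% of all tested genes were called higher. The causes of the changes in these counts were not tested. With a block for the replicate number, 11 members were higher in Nicol-/- and 11 in Ros1-/- over 9 libraries, and 9 and 12 in the 6 libraries compared. The shares of all tested genes called higher were 9.56% and 10% over 9 libraries, and 5.49% and 10.3% in the 6 libraries. In Ros1-/-, whose numbers did not pair with the controls, the block over 9 libraries ended the Smcp call (adjusted p = 0.0587) and added Akap4, Spa17, Gapdhs and Fabp9 higher and Dkkl1 lower (0.0165 to 0.0414), and in 6 libraries it ended the calls of Smcp and Hook1 (0.0532 and 0.0573) and added Ropn1l, Spa17, Meig1, Gapdhs and Fabp9, all higher (0.0105 to 0.0389), and Dkkl1 lower (0.0433). Lower counts under the block were 0 in Nicol-/- and 2 in Ros1-/- over 9 libraries, and 1 and 1 in the 6 libraries. The count tests planned on recovered reads were not run, because the deposited normalized counts did not meet the tolerance for whole reads. The 8 members below the filter had 0 to 94 estimated reads in each library.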
